A study of Danio rerio with 2 samples.

Results

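The genes described here encode collagens, other proteins of the extracellular matrix, the enzymes that fold, cross-link and cut them, and markers of mesenchymal and hepatic stellate cells. They were chosen by name, from a list of 53 symbols drawn up with earlier results of these data known. Of these symbols, 52 matched the name table, and they gave 59 of the 31953 Ensembl gene IDs in the count tables. The symbol col3a1 matched no ID. The table writes many zebrafish genes with the symbol of the human gene and no paralog letter, so 20 symbols were matched without their last letter. For 11 symbols the table held 2 IDs, which were both kept, and it does not say which paralog each ID is. All of this concerns larval zebrafish liver at 5 days post fertilization. One library was made from man1a2 morphants, which carried a morpholino (a synthetic antisense oligonucleotide) against man1a2, and 1 from uninjected controls. Each was a pool of livers from 3 batches of larvae. Since the controls were not injected, an effect of injection and an effect on man1a2 cannot be told apart. The study's methods list an ATG and a splicing morpholino and do not say which was in the sequenced pool. They list several transgenic lines and do not say which the sequenced larvae carried.

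Fibrillar collagens are secreted as triple helices and assemble into the fibres of connective tissue, while type IV collagen, laminins, nidogens and heparan sulfate proteoglycans form the basement membrane under epithelia and vessels. In the liver of mammals, hepatic stellate cells store vitamin A and are the main source of fibrillar collagen in fibrosis, whereas hepatocytes secrete the fibronectin of blood plasma. In zebrafish larvae, stellate cells are known by expression of hand2.

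The morphant library held 19783886 counts and the control library 19658335. With 1 library per group there were no replicates, so each difference compares these 2 libraries and every interval covers counting error only. MAN1A2 itself had 195 reads in the morphant library and 193 in the control library, which is no measure of a morpholino's effect on translation. Hepatocyte markers were abundant, as the liver label requires, with a summed level of 184151 CPM (reads per 1e+06 counts of the library) in morphants and 189338 CPM in controls. Digestive enzymes of the exocrine pancreas summed to 405 CPM in morphants and 30.1 CPM in controls, and epidermal genes to 93.2 CPM and 18.4 CPM.

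Of the 59 IDs, 53 had at least 10 reads over both libraries and were tested. A gene was past the read test when an exact binomial test of its reads, adjusted over all genes by the Benjamini-Hochberg method, gave an adjusted p under 0.05 and its fold was at least 1.2. In this test 17 IDs were higher in morphants and 5 were lower, or 32.1% and 9.43% of those tested. Over all 15732 genes tested, 12.5% were past the test as higher, 12.6% as lower, and 25.1% in either direction. The median log2 ratio of morphant over control was 0.26 for the 53 IDs and 0.01 for all genes tested. A simple 2-fold limit was also applied to the 51 IDs whose normalized counts averaged 10 or more. By this limit 11 were higher and 0 lower, where 3.3% and 4.14% of all such genes were, 7.44% in either direction. Differences between larvae or batches do not enter the read test, so the same reads were also run through edgeR's exact test with an assumed spread. At a coefficient of variation (CV) of 0.1, 11 IDs stayed past the threshold as higher and 2 as lower, where 2.83% and 3.54% of all genes did, 6.37% in all. The 9 calls that ended at this CV were those of COL4A1, col4a5, col18a1a, LAMB1, HSPG2, AGRN, SPARC, MMP2 and MMP14. At a CV of 0.2 the counts were 2 and 0, where 0.718% and 0.68% of all genes were past it, 1.4% in all. At a CV of 0.4 they were 0 and 0, where 0.273% of all genes were. A dispersion estimated blindly, with both libraries taken as 1 group, gave 0 and 0 as well, where 0.388% of all genes were higher and 0.356% lower, 0.744% in all. Without adjustment, 3 of the 53 IDs had an edgeR exact p under 0.05 at a CV of 0.4, and 7 had one with the blind dispersion. The share of all genes under this unadjusted limit was not computed, so these counts cannot be read as an excess.

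**Figure D1:**
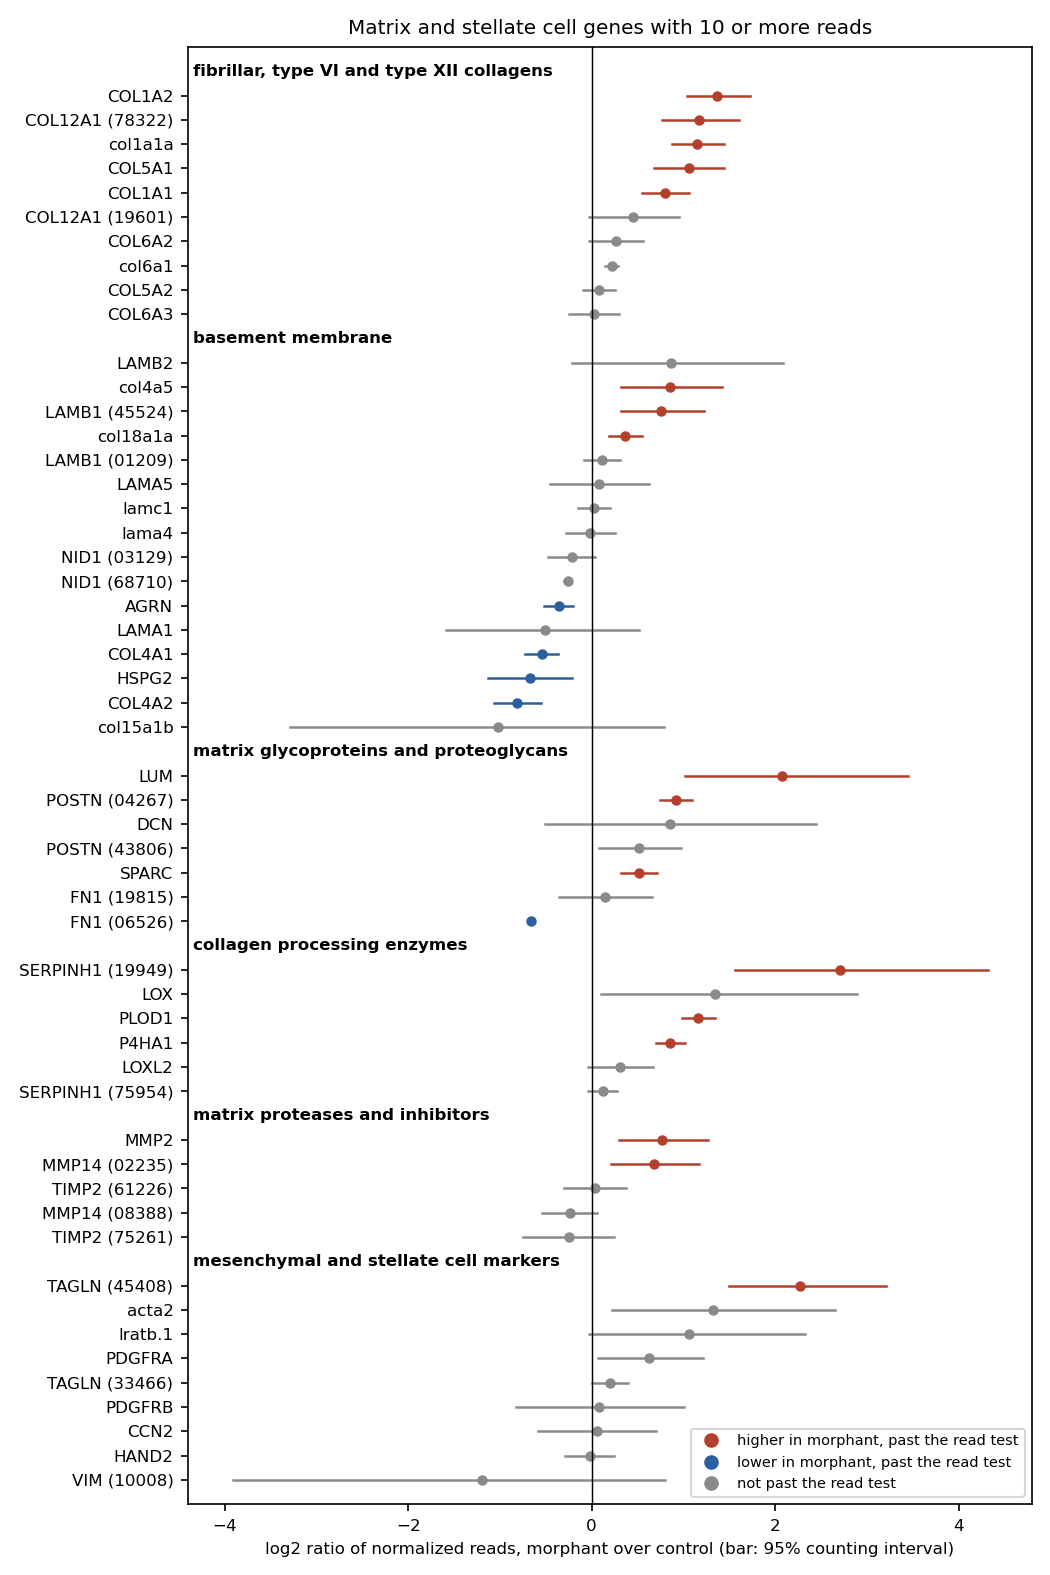
Log2 ratio of normalized reads in the morphant library over the control library for the 53 IDs with 10 or more reads, grouped by class. Points are ratios and bars are 95% counting intervals from 1 library per group. The last 5 digits of the ID are given where 2 IDs share a symbol. Type I collagen lies to the right of 0, and COL4A1 and COL4A2 lie to the left.

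Fibrillar collagens were compared first. All 3 IDs of type I collagen, the main collagen of connective tissue fibres, were higher in the morphant library, as was COL5A1. The chain COL5A2 and the 3 chains of type VI collagen were not past the test. Of the 10 IDs in this class, which takes in types VI and XII, 5 rose (50%) and 0 fell, with a median log2 ratio of 0.63. Over all genes tested, 12.5% were higher and 12.6% lower. Of the 5 IDs of types I and V alone, 4 rose, with a median of 1.06.

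The alpha-1 chain gene col1a1a (ENSDARG00000012405) had 365 reads in the morphant library and 152 in the control library. Its log2 ratio was 1.15 (95% interval 0.88 to 1.44, exact binomial adjusted p = 1.33e-16). The other alpha-1 ID, COL1A1 (ENSDARG00000035809), had 376 reads in morphants and 200 in controls, with a ratio of 0.80 (0.55 to 1.06). COL1A2, the alpha-2 chain that joins them in the trimer, differed most of the 3. It had 274 reads in morphants and 98 in controls, a 2.59-fold difference (log2 ratio 1.37, interval 1.04 to 1.72). Their intervals overlapped, and the chains were not tested against each other. The 3 IDs summed to 51.3 CPM in morphants (exact interval 48.2 to 54.6) and 22.9 CPM in controls (20.8 to 25.1).

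Type V collagen co-assembles with type I and sets the diameter of its fibrils. COL5A1 (ENSDARG00000012593) had 191 reads in morphants and 85 in controls (log2 ratio 1.06, interval 0.68 to 1.45). Its partner chain COL5A2 had 549 reads in morphants and 482 in controls, a ratio of 0.08 with an interval of -0.10 to 0.26. The intervals of these partner chains did not overlap.

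Type XII collagen sits on the surface of fibrils. Of its 2 IDs under COL12A1, ENSDARG00000078322 rose to 166 reads in morphants, against 68 in controls (1.17, interval 0.76 to 1.61). For ENSDARG00000019601 the reads were 90 and 61, and the interval of -0.03 to 0.95 included 0. Type VI collagen forms beaded filaments around cells, and here its chains differed little. The most deeply read chain, col6a1, had 3726 reads in morphants and 2972 in controls. Its ratio of 0.22 had an interval of 0.15 to 0.29, above 0 but short of the 1.2-fold limit, which it passed under total counts (0.32). COL6A2 (226 and 175 reads) and COL6A3 (241 and 220 reads) had ratios of 0.26 and 0.02. COL6A2 was past the test under total counts as well, at 0.36.

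Basement membrane genes did not move one way. Of the 16 IDs, 3 were higher (18.8%) and 4 lower (25%) in morphants, where 12.5% and 12.6% of all genes tested were. The other 9 were not past the test. At an assumed CV of 0.1, COL4A2 was the 1 ID of these 7 still past the threshold. The median log2 ratio was -0.12, and 0 of the 15 IDs with a mean of at least 10 were 2-fold apart.

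Type IV collagen is the network-forming collagen of the basement membrane, and its alpha-1 and alpha-2 chains combine in a single trimer. COL4A1 (ENSDARG00000055009) fell to 467 reads in morphants, against 633 in controls (log2 ratio -0.55, interval -0.72 to -0.37). COL4A2 (ENSDARG00000104110) fell to 207 reads, against 337 in controls (-0.81, interval -1.07 to -0.56, exact binomial adjusted p = 1.82e-09). The genes are neighbours in RefSeq's order of coding genes, with 0 between them. By contrast col4a5, a chain of a different type IV trimer, had 86 reads in morphants and 44 in controls (0.85, interval 0.32 to 1.42). The intervals of COL4A1 and col4a5 lay on opposite sides of 0.

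Genes of the heparan sulfate proteoglycans perlecan and agrin were also lower by the read test. HSPG2, which encodes perlecan, had 69 reads in morphants and 102 in controls (-0.67, interval -1.13 to -0.22). AGRN, which encodes agrin, had 605 reads in morphants and 719 in controls (-0.36, interval -0.52 to -0.20). The AGRN call was lost under total counts, where its ratio was -0.26. Collagen XVIII carries heparan sulfate too, and here it ran the other way. The gene col18a1a had 614 reads in morphants and 442 in controls (0.37, interval 0.19 to 0.55). Collagen XV, its close relative, was near the limit of detection, with 4 reads of col15a1b in morphants and 8 in controls.

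Laminins are the trimers on which the basement membrane assembles. Of their 7 IDs, 1 of the 2 under LAMB1 was past the test. This ID, ENSDARG00000045524, had 119 reads in morphants and 65 in controls (0.76, interval 0.32 to 1.22). The other LAMB1 ID had 476 reads in morphants and 409 in controls (0.11, interval -0.08 to 0.31). The gamma-1 chain lamc1, shared by most laminin trimers, had 574 reads in morphants and 524 in controls, a ratio of 0.02. The alpha-4 chain lama4, typical of vessels, had 243 and 228 reads and a ratio of -0.02, and LAMA5 had 64 and 56 reads and a ratio of 0.08. LAMA1 (15 reads in morphants and 20 in controls) and LAMB2 (22 and 11) had few reads, and their intervals included 0. Summed over the 7 IDs, laminin reads were 1513 in morphants and 1313 in controls, and the interval of their log2 ratio, -0.01 to 0.20, included 0.

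Nidogen links laminin to type IV collagen. The NID1 ID ENSDARG00000068710 was among the most deeply read members, with 13050 reads in morphants and 14528 in controls. Its ratio of -0.26 had an interval of -0.30 to -0.23. It lay at the 1.2-fold limit, just short of it under the main scaling and past it with TMM factors (-0.28) and upper-quartile factors (-0.29). The other NID1 ID, with 242 reads in morphants and 261 in controls, had a ratio of -0.22 and an interval of -0.48 to 0.04.

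**Figure D2:**
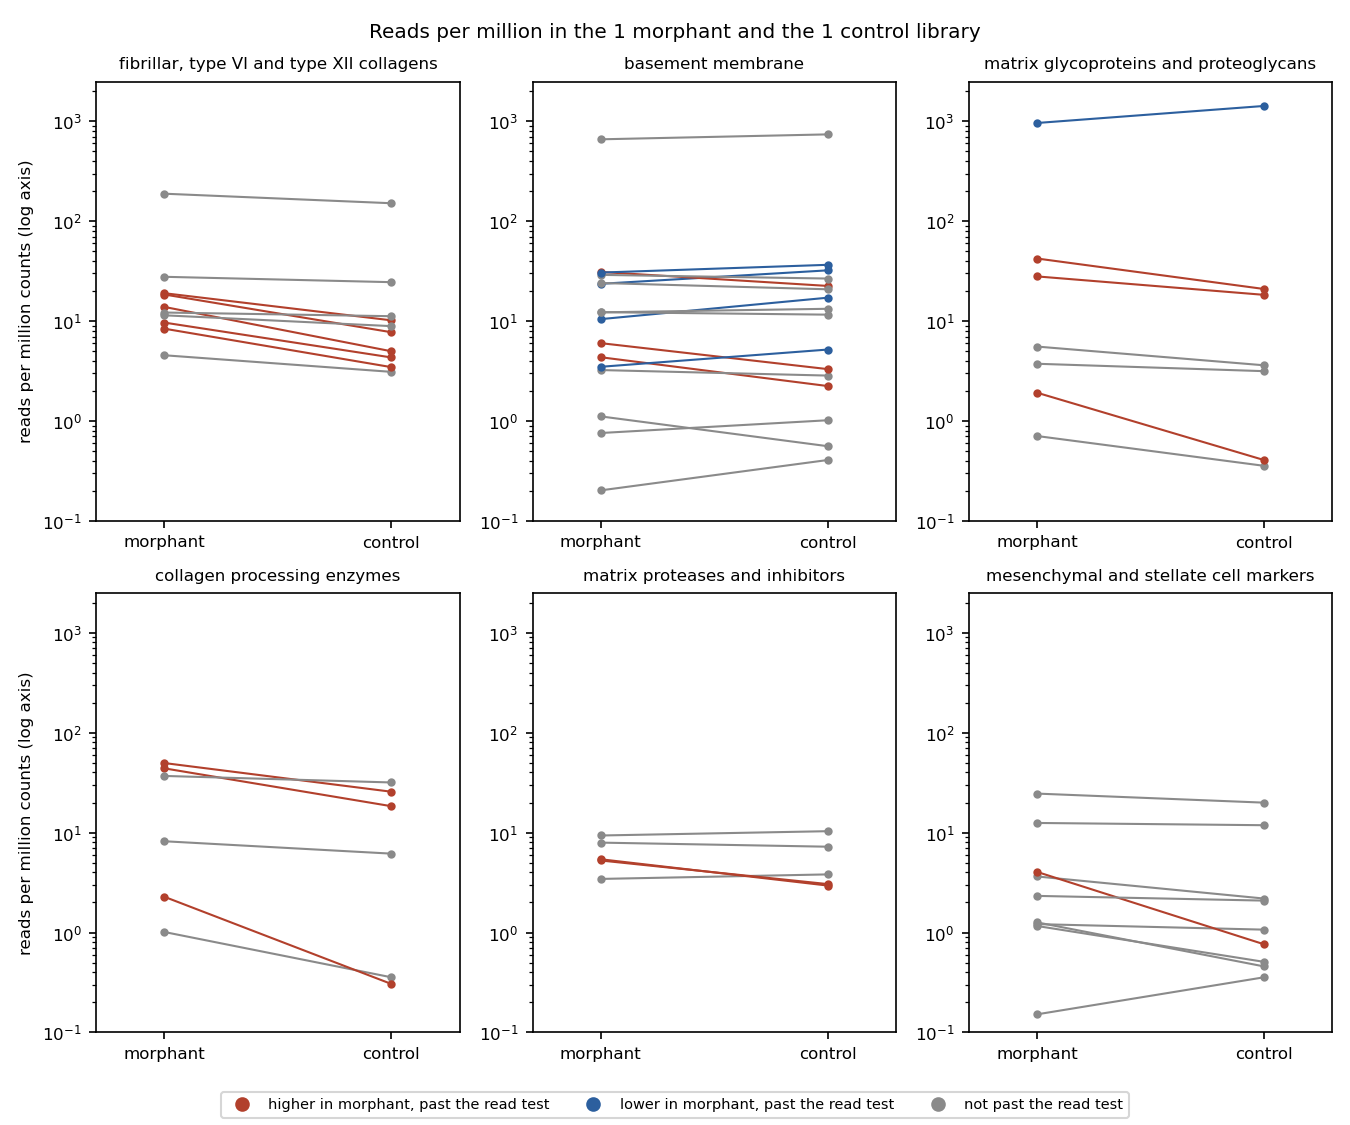
Level in CPM, on a log axis, of the 53 tested IDs in the 1 morphant library and the 1 control library, with a panel for each class and a line for each ID. The 2 IDs near the top of their panels are NID1 and FN1, and the lines of type I collagen slope down to the control library.

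Among matrix glycoproteins, fibronectin was lower and several proteins that bind fibrillar collagen were higher. Of the 7 IDs tested in this class, 3 rose (42.9%) and 1 fell (14.3%), where 12.5% and 12.6% of all genes tested did. The FN1 ID ENSDARG00000006526 fell to 19008 reads in morphants, against 27967 in controls. Its log2 ratio was -0.66 (interval -0.69 to -0.64), or 1.59-fold lower. This ID alone held 39.5% of all member reads in morphants and 51.1% in controls. The other FN1 ID had 74 reads in morphants and 62 in controls, and its interval of -0.36 to 0.66 included 0.

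Periostin and SPARC are matricellular proteins that bind type I collagen, and 1 periostin ID and SPARC were higher. The POSTN ID ENSDARG00000104267 had 837 reads in morphants and 412 in controls (0.91, interval 0.74 to 1.09, exact binomial adjusted p = 8.55e-26). The other POSTN ID had 110 reads in morphants and 71 in controls. Its interval of 0.08 to 0.98 excluded 0, but its exact binomial adjusted p = 0.0594 missed the threshold, which it passed under total counts (0.0183). SPARC had 554 reads in morphants and 360 in controls (0.51, interval 0.32 to 0.71).

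The small leucine-rich proteoglycans lumican and decorin regulate the spacing of fibrils. LUM had 38 reads in morphants and 8 in controls, or 2.08 on the log2 scale, and its interval was wide (1.02 to 3.45). DCN, its neighbour in RefSeq's gene order, had 14 reads in morphants and 7 in controls, and its interval of -0.51 to 2.44 allows both a rise and a fall. FBLN1, the gene of fibulin-1, had 1 read in morphants and 0 in controls. Since FN1 and the first NID1 ID held 66.6% of member reads in morphants and 77.7% in controls, a sum over all members followed them. All members summed to 2433 CPM in morphants and 2784 CPM in controls. The log2 ratio of the sums, taken with the DESeq2 size factors used for all ratios here and not with total counts, was -0.29. Without these 2 IDs the sums were 813 CPM in morphants and 622 CPM in controls, and the ratio was 0.29, of the opposite sign.

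Of the 6 IDs of collagen processing enzymes and their chaperone, 3 rose (50%) and 0 fell, where 12.5% and 12.6% of all genes tested did. The 3 were PLOD1, P4HA1 and the SERPINH1 ID with fewer reads, and the median log2 ratio of the 6 was 1.01. PLOD1, a lysyl hydroxylase that prepares collagen for cross-linking, had 869 reads in morphants and 361 in controls. Its log2 ratio was 1.16 (interval 0.98 to 1.34, exact binomial adjusted p = 2.93e-39). P4HA1, the catalytic subunit of prolyl 4-hydroxylase, which stabilises the triple helix, had 982 reads in morphants and 504 in controls (0.85, interval 0.70 to 1.01).

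The collagen chaperone HSP47 is encoded by SERPINH1, which had 2 IDs of unlike behaviour. ENSDARG00000075954, with most of the reads, had 730 in morphants and 624 in controls (0.12, interval -0.04 to 0.28). ENSDARG00000019949 had 45 reads in morphants and 6 in controls (2.70, interval 1.57 to 4.32), the highest ratio of any member tested. It was 1 of the 2 IDs still past the threshold at an assumed CV of 0.2. The extracellular cross-linking enzymes were read less deeply. LOX had 20 reads in morphants and 7 in controls, with an interval of 0.11 to 2.89 and an exact binomial adjusted p = 0.0866. LOXL2 had 162 reads in morphants and 121 in controls, and its interval of -0.04 to 0.67 included 0.

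Among matrix proteases and their inhibitors, 2 of 5 IDs rose (40%) and 0 fell, where 12.5% and 12.6% of all genes tested did. The median was 0.04. MMP2, a gelatinase, had 107 reads in morphants and 58 in controls (0.77, interval 0.30 to 1.26). MMP14, a membrane-bound protease that activates MMP2 in mammals, had 2 IDs. ENSDARG00000002235 had 104 reads in morphants and 60 in controls (0.68, interval 0.21 to 1.17), while ENSDARG00000008388 had 185 and 203 (-0.24, interval -0.54 to 0.05). The inhibitor TIMP2, which takes part in the same activation, was not past the test under either ID. Its reads were 157 in morphants and 142 in controls for ENSDARG00000061226, and 68 and 75 for ENSDARG00000075261.

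Mesenchymal and stellate cell markers were compared next. Of the 14 IDs, 9 had at least 10 reads, 1 was past the test as higher (11.1% of the 9) and 0 as lower. The share higher was near the 12.5% of all genes tested, of which 12.6% were lower. By the 2-fold limit, 3 of the 8 IDs with a mean of at least 10 were higher and 0 lower, where 3.3% and 4.14% of all such genes were. These 3 were acta2, lratb.1 and a TAGLN ID, of which only the TAGLN ID was past the read test. The marker of zebrafish stellate cells, HAND2 (ENSDARG00000008305), had 247 reads in morphants and 233 in controls. Its log2 ratio was -0.02, with an interval of -0.29 to 0.24. Under total counts the ratio of HAND2 was 0.07. The platelet-derived growth factor receptors mark fibroblasts and pericytes. PDGFRB had 24 reads in morphants and 21 in controls, with a wide interval of -0.82 to 1.0. PDGFRA had 72 reads in morphants and 43 in controls, with an interval of 0.07 to 1.22 and an exact binomial adjusted p = 0.075, which was 0.0306 under total counts. In bulk RNA, fewer cells of a type and less RNA per cell cannot be told apart.

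Smooth muscle actin and transgelin mark contractile and activated mesenchymal cells. The TAGLN ID ENSDARG00000045408 had 80 reads in morphants and 15 in controls (2.27, interval 1.50 to 3.21). The other TAGLN ID, ENSDARG00000033466, with most of the reads, had 486 in morphants and 392 in controls (0.20, interval 0.01 to 0.40). It was past the test only under total counts of the scalings tried, at 0.30. The actin gene acta2 had 25 reads in morphants and 9 in controls. Its log2 ratio of 1.32 had an interval of 0.22 to 2.65, and its exact binomial adjusted p = 0.0518 lay just above the threshold. It was below the threshold under total counts (0.0303) and with a 2-sided p summed over all outcomes no more likely, by which 26% of all genes were past the test.

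CCN2, a target of TGF-beta and YAP signalling in mammals that rises in fibrosis, had 46 reads in morphants and 41 in controls (0.06, interval -0.58 to 0.70). Its paralog ccn2b had 3 reads in each library. The retinol acyltransferase gene lratb.1, of the family that esterifies vitamin A for storage, had 23 reads in morphants and 10 in controls, with an interval of -0.03 to 2.33. The remaining markers were at or near 0. VIM, the gene of the mesenchymal filament vimentin, had 3 and 7 reads under one ID, and 0 and 2 under the other, in morphants and controls. The muscle filament gene DES had 2 reads in each library under one ID, and 2 in morphants and 0 in controls under the other. LHX2 had 0 reads in both, where a floor of 3 reads would be 0.152 CPM in morphants and 0.153 CPM in controls.

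**Figure D3:**
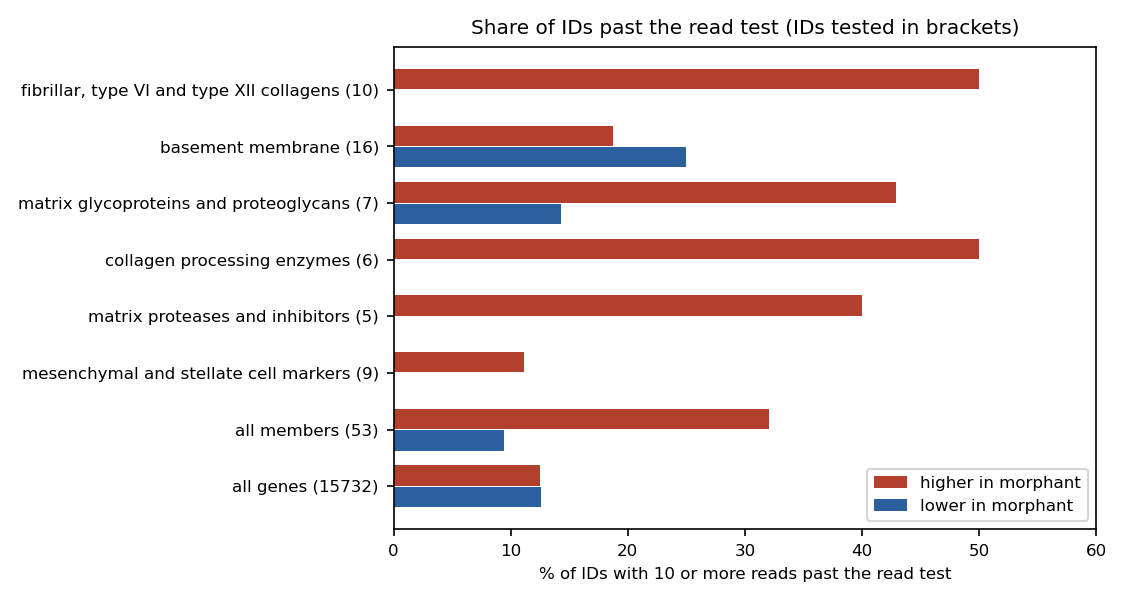
Percentage of tested IDs past the read test as higher or lower in the morphant library, for each class, all members and all genes, with the number of IDs tested in brackets. Bars start at 0, and fibrillar, type VI and type XII collagens reach 50% higher and 0% lower, beside 12.5% and 12.6% of all genes.

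The pairs of IDs under 1 symbol were set side by side because reads could be split between near-identical copies, and how the authors' counting did so is not stated. Of the 11 such symbols, 7 had exactly 1 ID past the read test, 0 had both and 4 had neither. In 4 of the 7 the ID past the test was the one with fewer reads, as for SERPINH1, TAGLN, LAMB1 and MMP14. With these 22 IDs left out, 11 of the remaining 34 tested IDs were higher (32.4%) and 4 lower (11.8%). Over all genes tested, the shares were 12.5% and 12.6%, so the share lower was near that of all genes.

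Further matrix genes that were not members were then read from 6 lists, which were also chosen with earlier results known. Of their 201 IDs, 135 were tested, 22 were higher and 22 lower (16.3% each), and the median was -0.04. Over all genes tested, 12.5% were higher and 12.6% lower. The balance differed between lists. Among other collagens, 8 of 21 were higher (38.1%) and 0 lower, with a median of 1.08. That median was the ratio of col24a1, with 12 reads in morphants and 5 in controls. Normalized counts averaged 10 or more in only 14 of these IDs. The 8 higher IDs included fibrillar chains found in cartilage and other tissues. COL11A1 (ENSDARG00000026165) had 49 reads in morphants and 3 in controls, a log2 ratio of 3.72 (interval 2.29 to 6.25), and col5a3b had 23 and 0, where the interval of the log2 ratio began at 2.42. The hemidesmosomal collagen of epidermis, col17a1a, had 83 reads in morphants and 2 in controls (4.97, interval 3.37 to 8.34). All of these named IDs had 3 or fewer reads in controls. More deeply read were col16a1 (257 reads in morphants and 78 in controls, 1.61) and col8a1a (262 and 164, 0.57), also higher. Both fell outside the naming rule and were picked after their values were seen.

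Of 29 tested IDs for folding and cross-linking outside the members, 4 were higher (13.8%) and 5 lower (17.2%), with a median of -0.08. These shares lay near the 12.5% and 12.6% of all genes tested. P4HA2, the second catalytic subunit of prolyl 4-hydroxylase, had 374 reads in morphants and 115 in controls (1.59, interval 1.29 to 1.91). TGM2 (350 reads in morphants and 205 in controls) and LOXL3 (47 and 21) were also higher. The prolyl isomerase FKBP10 had 116 reads in morphants and 169 in controls (-0.65, interval -1.0 to -0.30), while its other ID was not past the test. P3H3 (31 and 53 reads) and SEC24D (1378 and 1554 reads), whose product helps export procollagen, were lower as well. The calls of P3H3 and SEC24D were lost under total counts. The second P4HA1 paralog, p4ha1a, had 23 reads in morphants and 27 in controls (interval -1.21 to 0.52) and was not past the test. Related hydroxylases did not move one way. PLOD3 (975 reads in morphants and 686 in controls) was higher, p3h4 (101 and 132) was lower, and PLOD2, P3H1 and P3H2 were not past the test. These 6 genes fell outside the naming rule and were picked after their values were seen.

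Other basement membrane genes gave 1 higher and 1 lower of 8 (12.5% each), near the share of all genes tested. PTPRF, a receptor phosphatase, had 2052 reads in morphants and 1570 in controls (0.28), which was short of 1.2-fold under upper-quartile factors (0.25). SMOC1 had 11 reads in morphants and 47 in controls (-2.15, interval -3.30 to -1.23). Of the other proteases and inhibitors, 1 of 19 was higher (5.26%) and 5 lower (26.3%). The gene mmp23bb had 1086 reads in morphants and 736 in controls (0.45), and MMP15 (ENSDARG00000051962) 45 and 70 (-0.74), a call lost under total counts. The inflammatory proteases mmp13a (6 reads in morphants and 68 in controls) and MMP9 (8 and 46) had ratios of -3.50 and -2.56.

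Among other glycoproteins, 4 of 29 were higher (13.8%) and 7 lower (24.1%), where 12.5% and 12.6% of all genes tested were. The lower IDs included ENSDARG00000090557, ENSDARG00000089667 and ENSDARG00000090783 under MFAP4, a macrophage marker in zebrafish described under other observations. The microfibril gene mfap2 had 188 reads in morphants and 73 in controls (1.25), THBS1 (ENSDARG00000010785) 96 and 36 (interval 0.74 to 1.90), and thbs2b 13 and 0 (interval from 1.50 upwards). The proteoglycan gene BGN had 39 reads in morphants and 118 in controls (-1.69, interval -2.27 to -1.17), the opposite direction to LUM. Biglycan and lumican belong to the same family of leucine-rich proteoglycans.

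Other mesenchymal and stellate cell genes were level on balance, with 4 of 29 higher, 4 lower and a median of -0.06. Each share was 13.8%, near that of all genes tested. The mesothelial and stellate cell gene wt1b had 208 reads in morphants and 169 in controls (0.19), and TCF21 53 and 34 (0.53). The collectin gene COLEC11 had 841 reads in morphants and 807 in controls (-0.05), but COLEC10 had 458 and 539 (-0.34) and was past the test, except under total counts. The pericyte receptor NOTCH3 fell to 143 reads in morphants, against 206 in controls (-0.63, interval -0.95 to -0.32). The mural cell transcription factor foxf2a (75 and 37 reads) and ACTN1 (113 and 61) were higher in morphants, and tpm1 (18 and 43) was lower. The myosin light chain MYL9 had 2 IDs past the test in opposite directions, with 52 reads in morphants and 10 in controls for ENSDARG00000038123, and 596 and 689 for ENSDARG00000008030. The genes wt1b, TCF21, COLEC11 and the second MYL9 ID fell outside the naming rule and were picked after their values were seen.

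**Figure D4:**
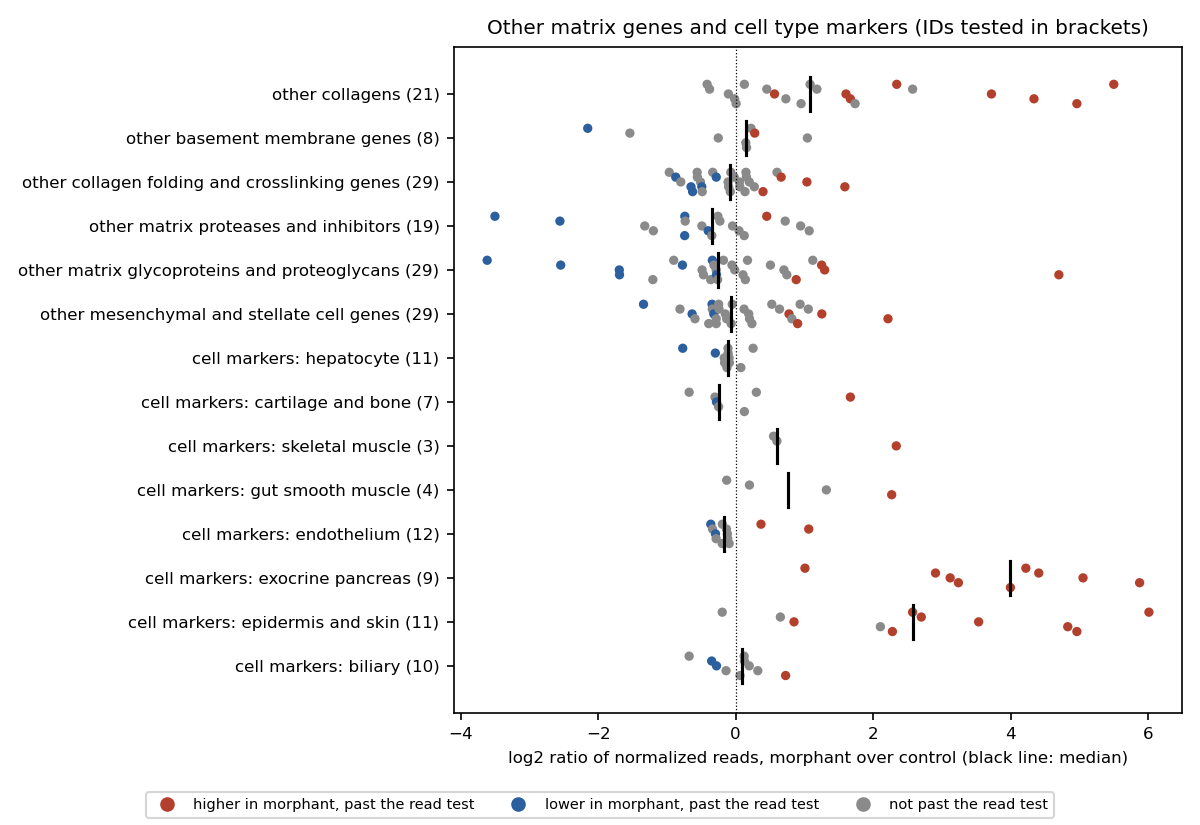
Log2 ratio of morphant over control for IDs with 10 or more reads in 6 lists of other matrix genes and 8 lists of cell type markers, 1 point per ID, with a black line at each median. Other collagens have a median of 1.08, exocrine pancreas of 4.0 and epidermis of 2.58, while endothelium and biliary markers lie near 0.

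Markers of other cell types, only some of which are known for making collagen, were read beside these results. Of 11 tested IDs of epidermis and skin, 8 were higher and 0 lower in morphants, where 12.5% and 12.6% of all genes were. The 8 include col17a1a, which was also counted among other collagens. The gene icn2 had 33 reads in morphants and 0 in controls. Exocrine pancreas genes were higher in 9 of 9 tested IDs. Skeletal muscle genes summed to 157 reads (7.94 CPM) in morphants and 80 reads (4.07 CPM) in controls. Only 3 of their 11 IDs were tested, of which 1 was higher and 0 lower. The higher one, myhz1.3, had 13 reads in morphants and 2 in controls, while myhz1.1 (82 and 50) and myhz2 (35 and 22) were not past the test. The part of these cells in the collagen differences was not tested. Of 7 tested cartilage and bone IDs, 1 was higher and 1 lower (14.3% each). The higher one was a COL2A1 ID also counted among other collagens, with 104 reads in morphants and 30 in controls. The lower one was a SOX9 ID also on the biliary list, with 399 reads in morphants and 449 in controls. The list summed to 902 reads (45.6 CPM) in morphants and 887 reads (45.1 CPM) in controls, and this SOX9 ID held much of both sums. UCMA (231 reads in morphants and 264 in controls) and MATN1 (129 and 97) held much of the rest and were not past the test. SP7 had 9 reads in morphants and 10 in controls. COL9A1, RUNX2 and both IDs of COL10A1 had 0 reads in each library. Endothelial genes, from cells that lay down type IV collagen, were higher in 2 of 12 IDs and lower in 2 (16.7% each). They summed to 205 CPM in morphants and 203 CPM in controls, which are scaled by total counts. By the size factors used for all ratios here, the log2 ratio of the sums was -0.08 (interval -0.15 to -0.02). Of the 12 IDs, 10 had ratios below 0 and 2 above. Biliary genes were higher in 1 of 10 IDs (10%) and lower in 2 (20%), which include the same SOX9 ID.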

How the data were processed

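Per the labels, RNA of pooled livers was poly-A selected and made into strand-specific libraries. The authors deposited raw counts per Ensembl gene, 1 table per library, without normalization. Their processing notes name build GRCz10, FastQC and DESeq2; the aligner and counting program are not given in the sources used here.

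Here, counts were scaled by DESeq2 1.42.0 size factors in R 4.3.3, and log2 ratios carry a pseudocount of 0.5. With 1 library per group no spread can be estimated, so an exact binomial test (2-sided, smaller tail doubled) was run on genes with at least 10 reads, with 95% Clopper-Pearson intervals without pseudocount. PCR copies are not independent molecules. Against 0 reads only the lower limit of the interval is given. Alternatives were edgeR 4.0.16 TMM and upper-quartile factors, total counts, other read and fold limits, and edgeR's exact test with assumed or blind dispersions. The test was checked on counts simulated with counting error only. Such a check does not cover differences between larvae or batches.

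Members and lists were chosen with earlier results of these data known. The table paired 26121 IDs with symbols; matching ignored case, then dropped a final a or b. Every member was named, and up to 3 genes past the test per direction in each other list, ranked by the interval bound nearest 0. Gene order came from RefSeq's GRCz12tu. No gene lengths were used, so levels are not compared between genes. Of the marker lists, exocrine pancreas (75.0% of symbols matched) and gut smooth muscle (62.5%, 1 of 4 tested IDs higher) are incomplete. Of the gut smooth muscle IDs, 3 are members, and the higher one is the TAGLN ID ENSDARG00000045408. The tested ID that is not a member, MYH11 (ENSDARG00000009782), had 128 reads in morphants and 130 in controls.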

Additional observations from a re-analysis of the deposited data

How the results depend on the processing

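No paired analysis was possible because there were no numbered replicates. Total counts moved log2 ratios up by 0.10, which gave 23 members higher and 4 lower, 21 of them shared with the 22 above. The p summed over all outcomes no more likely, an alternative chosen after seeing the data, added acta2 to the calls. The numbers higher and lower were 8 and 0 with a minimum fold of 2, 11 and 2 at an assumed CV of 0.1, 2 and 0 at 0.2, 0 and 0 at 0.4, and 0 and 0 under the blind dispersion. The share of all genes past the test was not counted under total counts or at a minimum fold of 2. Those member counts therefore cannot be read as an excess. In an alternative, also added after seeing the data, that left out pairs under 1 symbol, 11 of 34 tested IDs were higher (32.4%) and 4 lower (11.8%). Over all genes tested, 12.5% were higher and 12.6% lower. The median of the collagen processing enzymes was 0.58 over 4 IDs with at least 100 reads, against 1.01. At that limit LUM and the smaller IDs of SERPINH1 and TAGLN were not tested. Signs turned for COL6A3 (-0.0035) and lamc1 (-0.0035) under upper-quartile factors, and for lama4 (0.0826) and HAND2 (0.0748) under total counts. All other medians moved by less than the median half-width of the counting intervals of their single IDs. This held also in an added alternative with genes at 3 reads or fewer set at their bound. The half-widths ranged from 0.26 for basement membrane to 0.85 for mesenchymal markers, and they are not intervals of the medians. Scaling moves all ratios by nearly the same small amount, so for the scalings this comparison could not have come out otherwise. Depth limits LAMA1, LAMB2, DCN, LOX, PDGFRB, acta2 and lratb.1.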

Other observations

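Of the 6 IDs under MFAP4, 4 were tested and 3 were lower in the morphant library. In mammals this gene encodes a microfibril-associated glycoprotein, and in zebrafish mfap4 is used as a marker of macrophages. ENSDARG00000090557 had 226 reads in morphants and 2573 in controls, or -3.61 on the log2 scale (interval -3.82 to -3.42). ENSDARG00000089667 had 38 reads in morphants and 208 in controls (-2.54, interval -3.10 to -2.06), and ENSDARG00000090783, which the naming rule did not reach, had 8 and 25. The fourth, ENSDARG00000088745, also outside the rule, had 90 reads in morphants and 74 in controls, and its interval of -0.29 to 0.64 included 0. How reads were shared among these paralogs is not stated.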
